A study of Mus musculus with 6 samples.

Results

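Glucose metabolism was followed through 38 genes that encode the enzymes of glycolysis, the enzymes reserved for gluconeogenesis, the glucose transporters, the proteins that build and break glycogen, and regulators of these steps. The genes were taken by symbol from a fixed list, and all 38 were found among 22924 features with a sense tag. Tissue was taken from C57BL/6 mice at 6 months of age, either wild type or homozygous for a knockout of Atxn2 (Atxn2-KO), whose product is an RNA-binding protein. Polyadenylated RNA was measured by MACE, which sequences a stretch close to the 3′ end of a transcript, so that each transcript gives 1 tag whatever its length and levels may be compared between genes. Cerebellum, hippocampus and liver were each measured in 1 library per genotype, 6 libraries in all, and every library pooled 3 animals. The sources used here do not state how the allele was made or whether the controls were littermates.

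Glycolysis splits glucose into pyruvate, and lactate dehydrogenase interconverts pyruvate and lactate. Most steps are served by several isozymes whose genes are used by different organs. The brain takes up glucose continuously and burns it, with the little glycogen it holds lying mainly in astrocytes. The liver stores glucose as glycogen and releases it between meals, either from glycogen or through gluconeogenesis, which bypasses the irreversible steps of glycolysis with its own enzymes. Hormones acting through cyclic AMP and insulin set the transcription of several of these liver genes.

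Gene tags numbered 1774523 to 2727523 per library. Levels are given as counts per 1000000 gene tags (CPM) after TMM scaling, and pairs of values have the knockout library first. Atxn2 gave 0, 1 and 2 tags in the knockout libraries of cerebellum, hippocampus and liver, against 167, 194 and 115 in wild type. Xist, the RNA that coats the inactive X chromosome of females, gave 0 tags in each knockout library and 34, 49 and 87 in wild type, so that sex and genotype cannot be told apart in any comparison of the genotypes. Marker lists matched the labelled tissues: 10 hepatocyte genes summed to 160083 and 145437 CPM in liver, 8 cerebellar neuron genes to 5693 and 6133 CPM in cerebellum, and 8 forebrain neuron genes to 4572 and 5392 CPM in hippocampus. Hepatocyte genes were also present in brain, at 260.2 and 482 CPM in cerebellum, while hippocampus had 229 and 1214 CPM. Red blood cell genes were higher in the knockout library of every tissue, with log2 ratios of 0.34 in cerebellum, 0.79 in hippocampus and 0.90 in liver. In tissue RNA, fewer cells of a type and less RNA per cell cannot be told apart.

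The promoters of 4 members are shown because these genes carry the tissue and liver results described further on: Pck1 and G6pc act at the gluconeogenic end of the pathway, Pklr was detected in liver alone, and Ldha was the main lactate dehydrogenase of the liver. Each window is the RefSeq sequence on GRCm38.p6, from 250 bases before an annotated transcript start to 50 bases after it, on the + strand. Capitals mark matches, on either strand, to TATAAA (the TATA box), TTACGTCA (a cyclic AMP response element), GTTAAT (part of the site of HNF1, a liver factor), CACGTG (an E-box) and GACGTG (a hypoxia response core). Pklr and Ldha have 2 windows each. The window with the most matches is shown, and the other had none.
Pck1, chr2:173152823-173153122: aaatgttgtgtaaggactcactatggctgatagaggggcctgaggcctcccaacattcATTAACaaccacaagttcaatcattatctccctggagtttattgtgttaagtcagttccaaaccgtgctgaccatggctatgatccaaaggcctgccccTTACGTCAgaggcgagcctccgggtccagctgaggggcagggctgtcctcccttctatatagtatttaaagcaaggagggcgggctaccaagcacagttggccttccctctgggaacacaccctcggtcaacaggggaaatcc
G6pc, chr11:101367466-101367765: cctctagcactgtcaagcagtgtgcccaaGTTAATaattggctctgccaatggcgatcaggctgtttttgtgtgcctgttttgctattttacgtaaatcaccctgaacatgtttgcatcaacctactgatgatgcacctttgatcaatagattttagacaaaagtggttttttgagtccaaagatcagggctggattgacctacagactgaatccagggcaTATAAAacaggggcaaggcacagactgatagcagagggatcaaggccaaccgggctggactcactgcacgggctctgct
Pklr, chr3:89136373-89136672: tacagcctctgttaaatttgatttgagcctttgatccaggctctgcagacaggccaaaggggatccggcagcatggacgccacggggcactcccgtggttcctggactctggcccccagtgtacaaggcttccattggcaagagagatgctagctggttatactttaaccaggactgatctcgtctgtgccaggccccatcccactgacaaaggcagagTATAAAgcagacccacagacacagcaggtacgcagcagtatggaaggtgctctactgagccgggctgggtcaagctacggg
Ldha, chr7:46845554-46845853: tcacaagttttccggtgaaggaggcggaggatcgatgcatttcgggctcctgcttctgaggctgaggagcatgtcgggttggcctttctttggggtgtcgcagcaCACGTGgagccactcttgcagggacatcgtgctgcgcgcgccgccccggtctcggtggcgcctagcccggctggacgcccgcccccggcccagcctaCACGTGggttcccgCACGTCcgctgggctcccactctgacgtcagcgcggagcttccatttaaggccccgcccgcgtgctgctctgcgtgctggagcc

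Windows were found for 35 of the 38 genes, 54 windows in all, because some genes have several annotated starts. The string TTACGTCA stood in 0.499% of all 32851 windows of the table and, among the members, in that of Pck1 alone, 93 bases before the start. Other forms of the cyclic AMP response element were not searched for. One of them, TGACGTCA, stands unmarked in the printed Ldha window, so the element itself is not shown to be particular to Pck1. TATAAA stood in 13.6% of all windows and in 5 of the 54 member windows; in G6pc and Pklr it began 29 and 31 bases before the start. GTTAAT stood in 7.10% of all windows and in 4 member windows, those of Gckr, Pfkfb1, Pck1 and G6pc. CACGTG occurred in 7.15% of all windows and in 5 member windows, including 2 copies in the Ldha window, and GACGTG in 6.38% of all windows and 10 of the 54. No match in the printed windows overlapped another. The windows also differed in CpG content, given as the observed over the expected number of CpG pairs. The members include 9 whose mean level in liver was 20 or more times that in brain; 7 of these had windows, and their ratios had a median of 0.29 and ran from 0.12 in Slc2a2 to 0.65 in Pygl. The other 28 members had a median of 0.65, with a range from 0.16 in Pygm to 0.95 in Pgam1, and all 27025 genes of the table had a median of 0.39.

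The glycolytic core was abundant in all 3 tissues. The 38 genes together took 2.17% and 2.16% of the gene tags of cerebellum, 2.23% and 2.12% of those of hippocampus, and 1.14% and 0.897% of those of liver. Gapdh, which oxidises glyceraldehyde 3-phosphate, was the highest member everywhere: cerebellum had 4287 and 4295 CPM, hippocampus 5279.7 and 5145 CPM, and liver 9299.8 and 5862 CPM. Next in cerebellum were Aldoc, Pkm, Eno1 and Aldoa, of which Aldoc had 2286 and 2309 CPM. In hippocampus Aldoa, Eno1, Pkm and Aldoc came next, though in another order in each genotype, with Aldoa at 2009.8 and 1702 CPM and Pkm at 1661 and 1737 CPM. In liver Eno1 (2531 and 1739 CPM), Ldha (2406 and 1804 CPM) and Fbp1 (1612 and 1184 CPM) came next, with Eno1 ahead of Ldha in knockout and behind it in wild type. The fifth place went to Pgk1 in knockout liver, at 1025 CPM, and to Tpi1 in wild type, at 840.4 CPM. Aldolase C was second only to Gapdh in both cerebellum libraries and stood below aldolase A in both hippocampus libraries.

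**Figure D1:**
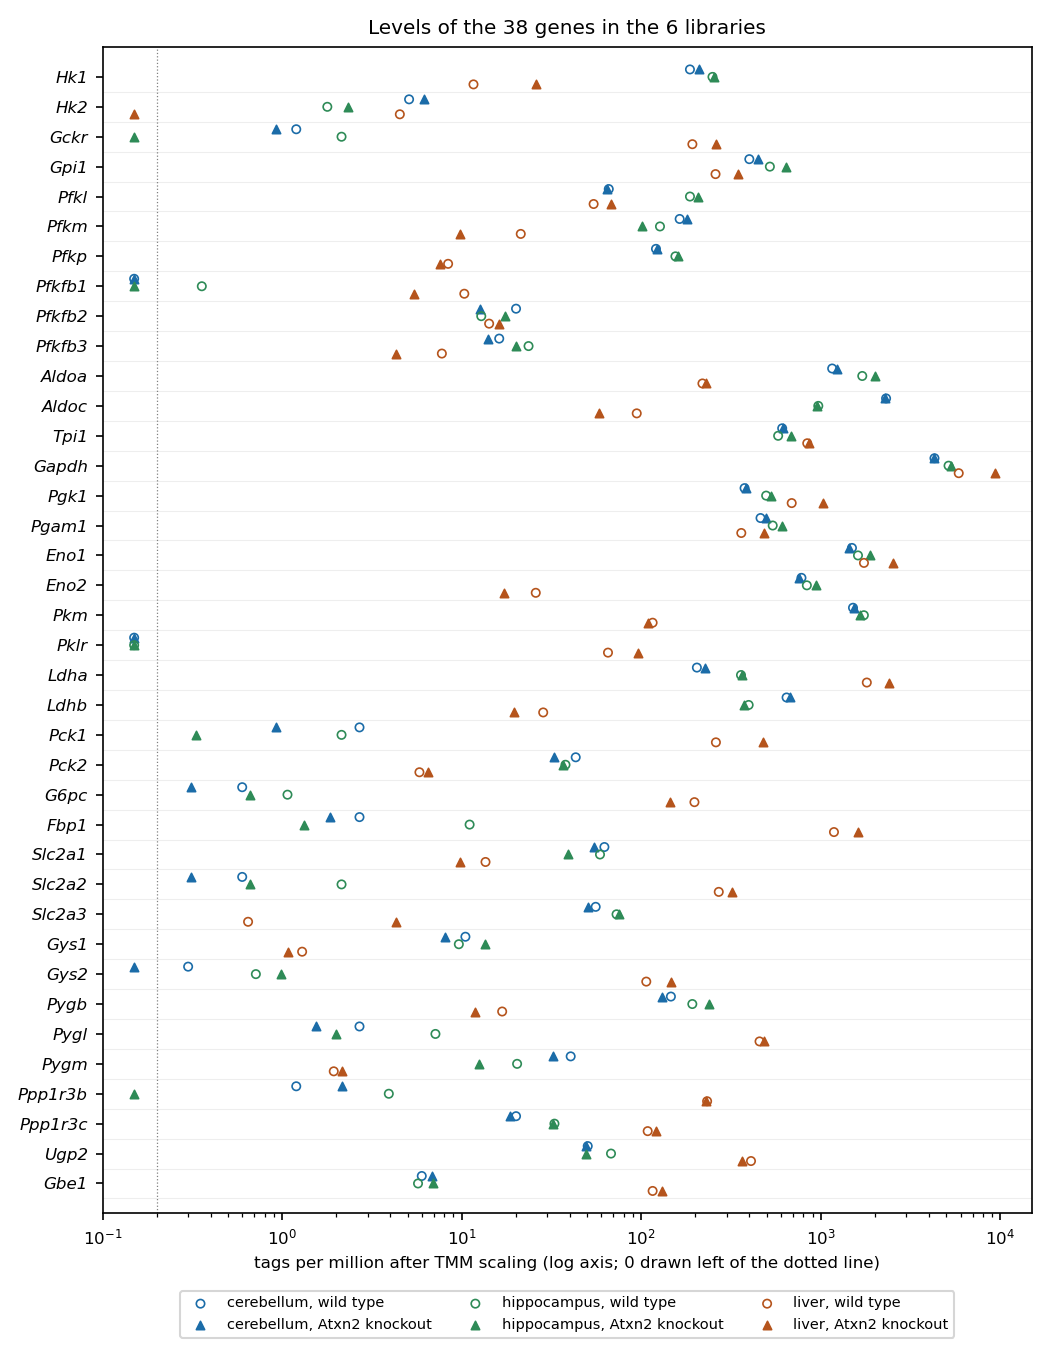
CPM after TMM scaling (log axis) for each of the 38 genes; open circles are wild-type and filled triangles knockout libraries, coloured by tissue, and values of 0 are drawn left of the dotted line. Liver and brain stand far apart for genes such as Fbp1 (1612 and 1184 CPM in liver, at most 11.1 CPM in brain) and Eno2 (17.3 and 25.9 CPM in liver, 757 to 941 CPM in brain).

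Liver and brain differed in the mix of isozymes at several steps, although Hk1, Eno1 and Pkm had the most tags of their families in all 6 libraries. Tissues were compared with edgeR's quasi-likelihood test over 11375 genes, of which 30 were members; Hk2, Gckr, Pfkfb1, Pklr, Pck1, G6pc, Slc2a2 and Gys2 did not pass the filter on low counts. A gene was called when its Benjamini-Hochberg adjusted p was under 0.05 and its difference at least 2-fold. The knockout and wild-type libraries of a tissue stood in as its replicates, so the p-values do not measure the spread between animals. Of the 30 members, 7 were higher in liver than in brain, against 24.5% of all genes, and 15 were lower, against 30.5% of all genes. The median log2 difference was -1.22 for the members and -0.14 for all genes tested. The filter removed several liver genes, and when it was set by tissue, an alternative chosen after seeing the data, 37 members were tested and 13 were higher in liver. The genes this added to the calls were G6pc, Gckr, Gys2, Pck1, Pklr and Slc2a2. Each had 0 to 9 tags in every brain library and passed that filter through its liver libraries. Their direction thus followed from the filter, and no share of all genes is set beside the 13. Scaling to library totals instead of by TMM lowered the liver-to-brain differences by 1.32 on the log2 scale, so that small differences turned on the scaling.

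Hexokinase traps glucose in the cell by phosphorylating it. Hk1, the brain's main hexokinase, stood at 209 and 187 CPM in cerebellum and at 254 and 249 CPM in hippocampus, but at 26.0 and 11.6 CPM in the liver libraries. It was 12.7-fold lower in liver (log2 difference -3.67, SE 0.24, adjusted p = 3.44e-11, edgeR). Hk2, the isozyme of muscle and fat, had 5 to 20 tags in the brain libraries and 0 and 7 in those of liver. Gckr, a liver protein that regulates the phosphorylation of glucose, had 241 and 298 tags in liver and 0 to 6 in the brain libraries. Further isozymes of hexokinase and aldolase are not among the 38 genes, so the shares below are shares among the listed members.

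Phosphofructokinase commits glucose to glycolysis, and its 3 subunit genes divided by tissue. In cerebellum the muscle subunit Pfkm took 49.0% and 46.7% of the family's tags, with 95% counting intervals of 46.1% to 51.9% and 43.8% to 49.6%. In hippocampus the liver subunit Pfkl led, with 44.4% and 39.8%, and Pfkm took 21.5% and 27.1%. In liver Pfkl took 79.7% (interval 69.2% to 88.0%) and 64.6% (55.8% to 72.8%). The platelet subunit Pfkp held 33.1% to 34.5% in the 4 brain libraries and 8.86% and 10.0% in liver. Both regions thus had much the same Pfkp share, while Pfkl and Pfkm exchanged places between them.

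Aldolase, enolase and pyruvate kinase showed the same kind of split. Aldoc, an aldolase of astrocytes and Purkinje cells, took 65.1% and 66.6% of the tags of Aldoa and Aldoc in cerebellum; in hippocampus it took 32.0% and 36.3%, and in liver 20.3% and 30.1%. Eno2, the neuron-specific enolase, took 33.4% to 34.6% of enolase tags in the 4 brain libraries and 0.679% and 1.47% in liver. These shares rest on Eno1 tags that lie almost wholly in rows shared with predicted genes; over rows of 1 symbol alone they become 98.3% to 98.6% in brain, and 44.4% and 64.5% in liver. Eno2 was 37.2-fold lower in liver (log2 difference -5.22, SE 0.29, adjusted p = 3.23e-12, edgeR). Pkm had 4863 to 5041 tags in each brain library, where Pklr, the liver and red cell pyruvate kinase, had 0 tags. A floor of 3 tags allows a share of up to 0.0617% in any of them, and the exact 95% interval one of up to 0.0758%. In liver Pklr had 89 and 101 tags and took 46.8% (39.6% to 54.2%) and 36.1% (30.4% to 42.0%) of the family. Against a floor of 3 tags over the 4 brain libraries, Pklr was at least 317-fold higher in liver, or at least 128-fold with library totals.

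Lactate dehydrogenase B, the subunit of oxidative tissues, and lactate dehydrogenase A, that of tissues making lactate, were placed apart as well. Ldhb took 74.9% and 76.0% of their tags in cerebellum; in hippocampus it took 50.8% and 52.5%, and in liver 0.802% and 1.55%. Ldha was 7.48-fold higher in liver than in brain (log2 difference 2.90, SE 0.21, adjusted p = 2.37e-10, edgeR), and Ldhb 20.5-fold lower (log2 difference -4.36, SE 0.24, adjusted p = 3.42e-12). Genes of the middle and lower steps differed less with TMM scaling. Pgam1, a phosphoglycerate mutase, had a log2 difference of -0.33, which passed the 2-fold limit with library totals at -1.65 (adjusted p = 2.07e-07, edgeR). Tpi1, Gapdh, Pgk1 and Eno1 had log2 differences of 0.45, 0.65, 0.94 and 0.40 between liver and brain with TMM scaling and of -0.87, -0.67, -0.39 and -0.92 with library totals, so their direction depended on the scaling.

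**Figure D2:**
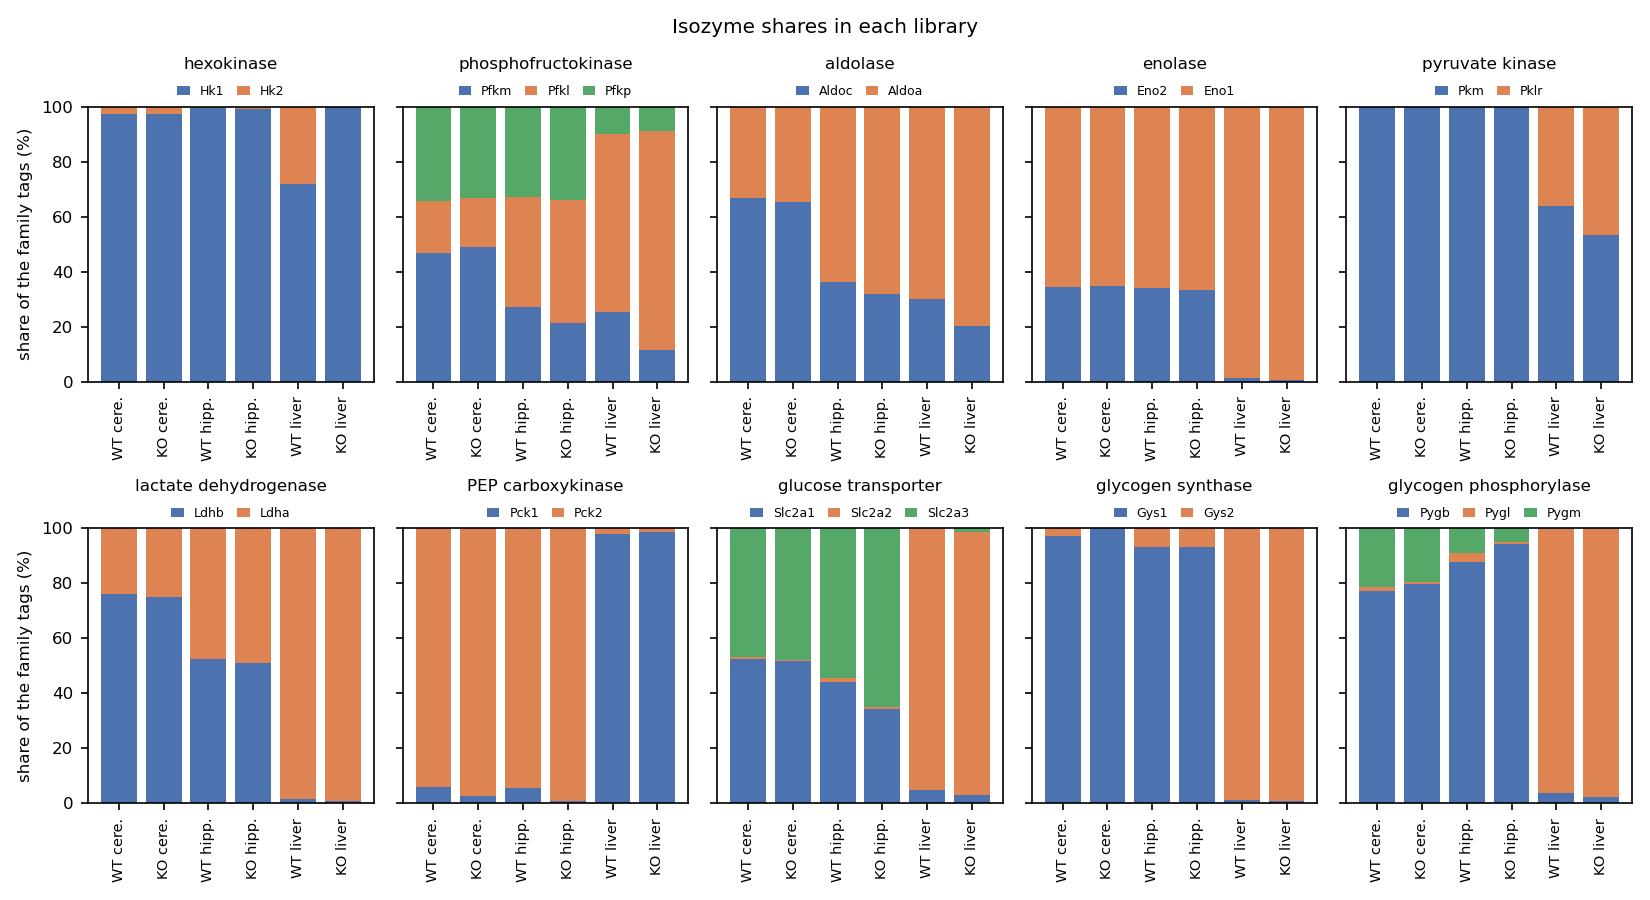
Share of each enzyme family's tags (percent) taken by its listed isozymes in the 6 libraries, wild type (WT) beside knockout (KO) in cerebellum (cere.), hippocampus (hipp.) and liver. Ldhb, for example, takes 76.0% in wild-type cerebellum and 1.55% in wild-type liver.

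Gluconeogenesis was a liver pattern. Fbp1, the fructose bisphosphatase, had 1491 and 1831 tags in liver and 4 to 31 in the brain libraries; it was 378-fold higher in liver (log2 difference 8.56, SE 0.35, adjusted p = 2.82e-14, edgeR). Pck1, the cytosolic phosphoenolpyruvate carboxykinase and rate-setting enzyme of the pathway, had 439 and 403 tags in liver and 1 to 9 in each brain library. G6pc, the phosphatase that frees glucose for export, had 133 and 306 tags in liver and 1 to 3 in brain. With the filter set by tissue, which both genes passed through their liver libraries, the log2 differences of Pck1 and G6pc were 7.81 and 7.92. Pck2, the mitochondrial carboxykinase, ran the other way, with 106 to 144 tags in the brain libraries and 6 and 9 in liver (log2 difference -2.64, SE 0.31, adjusted p = 2.86e-07). Pck1 therefore took 98.7% and 97.8% of carboxykinase tags in liver and 0.893% to 5.88% in brain.

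Glucose transporters and glycogen genes followed suit. Slc2a2, the low-affinity transporter of hepatocytes, took 95.8% of transporter tags in knockout liver (interval 93.0% to 97.8%) and a like share in wild type (interval 92.5% to 96.8%). Slc2a1, the transporter of the blood-brain barrier and astrocytes, and Slc2a3, that of neurons, shared the brain almost evenly in cerebellum, where Slc2a1 took 51.8% and 52.5%. In hippocampus Slc2a3 took 65.2% (60.0% to 70.2%) in knockout and 54.4% (49.2% to 59.5%) in wild type. Gys2, the liver glycogen synthase, had 136 and 165 tags in liver and 0 to 3 in brain, and Gys1, the synthase of other tissues, had 26 to 41 in brain and 1 and 2 in liver.

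Among glycogen phosphorylases, which release glucose units from glycogen, Pygl took 97.2% and 96.0% in liver and Pygb, the brain form, 77.2% to 94.3% in the brain libraries. Pygm, the muscle form that astrocytes also make, took 19.5% and 21.4% in cerebellum but 4.95% and 9.25% in hippocampus. Skeletal muscle markers were near absent, with 20 to 31 tags in all for 7 genes in the brain libraries. The branching enzyme Gbe1 and Ugp2, which makes the UDP-glucose that glycogen is built from, were 19.1-fold and 7.15-fold higher in liver (adjusted p = 1.11e-13 and 7.47e-13, edgeR). Ppp1r3b, which brings protein phosphatase to glycogen in liver, was 126-fold higher there (log2 difference 6.98, SE 0.29, adjusted p = 3.93e-14). Ppp1r3c, a similar targeting subunit of many tissues, was 4.54-fold higher, which fell under the 2-fold limit with library totals, at a log2 difference of 0.87.

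Within the brain, some isozyme and glycogen genes differed between cerebellum and hippocampus, about as often as genes in general. Of 30 members tested, 4 were higher in cerebellum, against 13.3% of all genes, and 4 were lower, against 15.1% of all genes, at an adjusted p under 0.05 (edgeR's quasi-likelihood test). Both counts were near those shares, so they do not set the members apart. Aldoc was 2.40-fold higher in cerebellum (log2 difference 1.26, SE 0.28, adjusted p = 0.00162), Pygm 2.23-fold higher (1.15, SE 0.22, adjusted p = 0.000528), Ldhb 1.72-fold higher (0.78, SE 0.19, adjusted p = 0.00413) and Pfkm 1.52-fold higher (0.61, SE 0.18, adjusted p = 0.0142). Pfkl was 3.01-fold lower (log2 difference -1.59, SE 0.16, adjusted p = 2.77e-07), with 209 and 220 tags in cerebellum against 629 and 523 in hippocampus. Ldha, Pygb and Ppp1r3c were lower by 0.75, 0.64 and 0.75 on the log2 scale (adjusted p = 0.0334, 0.00673 and 0.00809). For the pairs Pfkm and Pfkl, Ldhb and Ldha, and Pygm and Pygb, 1 isozyme was higher in cerebellum and its partner higher in hippocampus.

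These regional calls rested on few libraries. Without the knockout cerebellum library 0 members were higher and 1, Pfkl, was lower; without the wild-type cerebellum library 2 (Pfkm and Pygm) were higher and 1, Pfkl, lower. Without either liver library 5 were higher and 11 lower, and without wild-type hippocampus 5 were higher and 2 (Pfkl and Pygb) lower. DESeq2 called 2 higher (Aldoc and Pygm) and 2 lower (Ldha and Pfkl).

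No member passed the test for a difference between the genotypes shared by the 3 tissues. In the genotype fit with tissue as a block, 0 of the 30 members were higher and 0 lower in knockout, against 0.00879% and 0.0879% of all 11375 genes. The lowest adjusted p among members was 0.998 (edgeR). At an unadjusted p under 0.05 stood 1 of 30 members with edgeR, 0 with DESeq2 and 2 with limma voom, against 4.87%, 1.10% and 4.32% of all features. The 1 in edgeR was Slc2a1, with a log2 difference of -0.38 (SE 0.17, unadjusted p = 0.0347) and a lower level in knockout in 3 of 3 tissues. Cerebellum had 177 and 208 of its tags, hippocampus 119 and 165, and liver 9 and 21. On simulated counts for the same 11375 genes this fit recovered 24% of genes changed 1.5-fold and 70% of those changed 2-fold, so a shared change of the sizes seen here could be missed.

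The direction in each tissue was read for 20 members with at least 10 CPM in all 3. With TMM scaling 7 were above equality in every tissue (Hk1, Gpi1, Aldoa, Tpi1, Pgk1, Pgam1 and Ldha), against 13.3% of 6015 such features, and 3 were below in every tissue (Aldoc, Slc2a1 and Ugp2), against 13.6%. With DESeq2's size factors only Gpi1, Aldoa, Pgk1 and Pgam1 remained above, against 13.9% of features. With library totals only Hk1, Gpi1, Pgk1, Pgam1 and Ldha did, against 9.51%. The 3 below were the same under both, against 12.7% and 17.6%, and their count was near the share under each scaling. Gpi1, which turns glucose 6-phosphate into fructose 6-phosphate, had log2 ratios of 0.16 in cerebellum, 0.30 in hippocampus and 0.41 in liver. No test attaches to these counts.

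In cerebellum the genotypes were close. A member was counted within a tissue when its ratio was at least 1.5-fold, its mean at least 10 CPM, and the 95% counting interval of the ratio excluded equality; with 1 library per genotype no test is possible, and the interval covers counting error only. Of 25 members measured, 0 were higher in knockout, against 1.31% of all features, and 1 was lower, against 2.04%. This was Pfkfb2, a maker of the allosteric activator fructose 2,6-bisphosphate, with 41 tags in knockout and 67 in wild type (log2 ratio -0.66, interval -1.26 to -0.08). Counting intervals lay wholly above equality for 5 members, against 7.10% of all features, and wholly below for 3, against 8.07%. Intervals narrow as tags increase, and 16 of the 25 members but 1440 of the 8535 features had at least 100 CPM. These counts and shares are thus not like for like. The median log2 ratio of the members was -0.01, as for all features. Aldoc and Pkm, with 7380 against 7704 and 4959 against 5041 tags, had ratios of -0.01 and 0.02.

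In hippocampus 26 members were measured; 0 were higher, against 4.04% of all features, and 1 was lower, against 3.59%. Pygm had 38 tags in knockout and 57 in wild type (log2 ratio -0.70, interval -1.33 to -0.08), and in cerebellum 104 and 135 (-0.33, interval -0.71 to 0.05). Slc2a1 lay just under the size limit, at -0.58 (interval -0.94 to -0.23), and passed it with either other scaling. Beside these genes, 8 astrocyte markers had log2 ratios of -0.15 in cerebellum and -0.22 in hippocampus, and 7 endothelial markers 0.11 and 0.07; their part in the ratios was not tested. Of 17 members of at least 100 CPM, 13 had a ratio above 0, against 52.5% of all such features. Among them Aldoa had 6078 and 4764 tags (0.24, interval 0.19 to 0.30), Eno1 5671 and 4510 (0.22) and Gpi1 1934 and 1457 (0.30, interval 0.20 to 0.40). Pkm, with 5024 and 4863 tags, went the other way (-0.06, interval -0.12 to -0.01). Intervals above equality were held by 8 members, against 12.4% of all features, and below by 5, against 10.6%. Here too the counts and shares are not like for like. At least 100 CPM was reached by 17 of the 26 members and by 1556 of the 8558 features. Pfkm and Ugp2 lay below, at -0.34 (interval -0.56 to -0.11) and -0.46 (interval -0.78 to -0.14).

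Liver genes in the hippocampus libraries formed a separate pattern. The 9 liver-rich members defined above (Gckr, Pklr, Pck1, G6pc, Fbp1, Slc2a2, Gys2, Pygl and Ppp1r3b) summed to 18 tags in knockout and 85 in wild-type hippocampus, 5.10-fold lower in knockout (log2 ratio -2.35, interval -3.17 to -1.60). Fbp1 had 4 and 31 tags, Pygl 6 and 20, and Ppp1r3b 0 and 11, which is at least 3.96-fold lower against a floor of 3 tags per library. In cerebellum the same 9 genes had 26 and 40 tags, 1.49-fold lower (-0.57, interval -1.35 to 0.17). The 10 hepatocyte markers had log2 ratios of -2.41 in hippocampus and -0.89 in cerebellum, and all 967 liver-rich transcripts had -0.68 and -0.26. Alb, the most abundant of the hepatocyte genes, had 458 and 2465 tags in hippocampus. The part of liver RNA in these ratios was not tested.

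**Figure D3:**
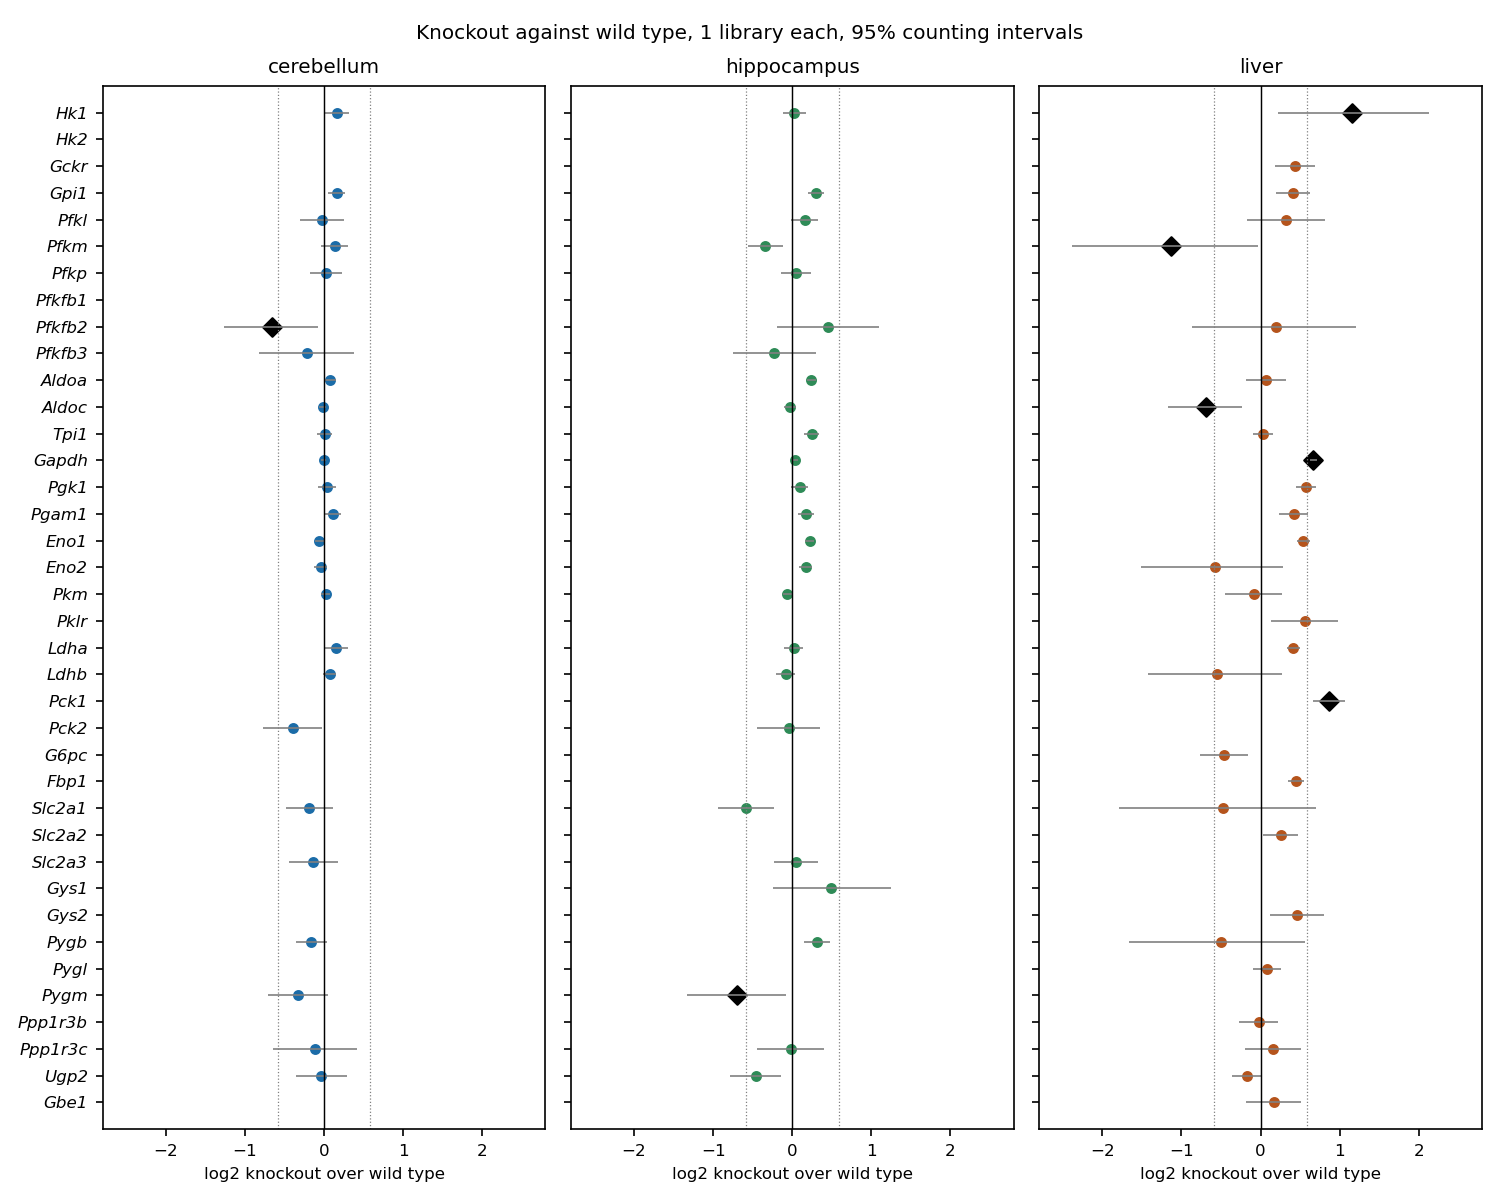
Log2 ratio of knockout over wild type for members with a mean of at least 10 CPM in a tissue; bars are 95% counting intervals from 1 library per genotype, dotted lines mark 1.5-fold, and black diamonds mark members that passed the size rule. Cerebellum and hippocampus have 1 diamond each, Pfkfb2 and Pygm, and liver has 5.

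Liver held the most members past the size rule, as it also did for all features. Of 30 members measured, 3 were higher in knockout, against 4.07% of all features, and 2 were lower, against 6.70%, a count near that share. Pck1 had 439 tags in knockout and 403 in wild type, or 475 and 261 CPM (log2 ratio 0.87, interval 0.67 to 1.06). Gapdh had 8600 and 9068 tags, or 9299.8 and 5862 CPM (0.67, interval 0.62 to 0.71). Hk1 had 24 and 18 tags (1.16, interval 0.21 to 2.12). The knockout liver library was the shallowest, with 1774523 gene tags against 2727523, which is why lower or like counts stand for higher levels.

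The members that were lower in knockout liver are best known from other organs. Pfkm had 9 and 33 tags (log2 ratio -1.13, interval -2.38 to -0.04), and Aldoc 54 and 146 (-0.69, interval -1.17 to -0.23). The 4 members whose mean level in brain was 20 or more times that in liver (Aldoc, Eno2, Ldhb and Slc2a3) summed to 92 and 231 tags (log2 ratio -0.59, interval -0.95 to -0.23). Beside them, 5 pan-neuronal markers summed to 123 and 159 CPM (log2 ratio -0.37), and all 965 brain-rich transcripts had a log2 ratio of -0.22. The 7 oligodendrocyte markers had -0.42, with 3 of the 7 below equality, and 8 cerebellar neuron markers -0.23. Other brain lists went the other way: 8 forebrain neuron markers stood at 0.56 (interval 0.20 to 0.93) and 8 astrocyte markers at 0.06. The part of brain RNA in these ratios was not tested.

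At a stricter limit of 2-fold, 0 members were higher and 0 lower in cerebellum, against 0.129% and 0.316% of all features. Hippocampus also had 0 and 0, against 0.432% and 1.04%, and liver had 1 higher (Hk1) and 1 lower (Pfkm), against 1.53% and 3.39%.

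The scaling bore on the liver calls. DESeq2's size factors moved every liver ratio by 0.10 on the log2 scale and library totals by -0.12. Pck1 and Hk1 passed the size rule under both and Aldoc also did. Gapdh passed with DESeq2's factors and not with totals, and Pfkm passed with neither. With DESeq2's factors Eno1, Pgk1 and Pklr passed too, making 6 higher and 1 lower. Those factors raised the liver ratios of all features alike. No share of all features is set beside the 6 and the 1, so they do not set the members apart.

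Many members had small ratios that counting error does not cover. Among 30 measured members in liver, 13 had an interval wholly above equality, against 12.2% of all features, and 3 wholly below, against 10.1%. Intervals narrow as tags increase, and the members had more tags than features in general. At least 100 CPM was reached by 20 of the 30 members and by 2064 of the 8248 features. These counts and shares are thus not like for like. The median log2 ratio was 0.18 for the members, 0.37 for the 16 measured glycolytic enzymes and -0.02 for all features. Of these 16 enzymes, 8 had an interval wholly above equality and 2, Pfkm and Aldoc, wholly below. Eno2 and Ldhb also lay under equality, at -0.58 and -0.55, with intervals that included it. Pgk1 had 948 and 1065 tags (log2 ratio 0.57, interval 0.45 to 0.70), Eno1 2341 and 2690 (0.54, interval 0.46 to 0.62), Pgam1 447 and 558 (0.42) and Ldha 2225 and 2790 (0.42, interval 0.33 to 0.50). Pklr, with 89 and 101 tags, stood at 0.56 (interval 0.13 to 0.99), and the red blood cell markers, genes of another cell type that makes it, at 0.90; their part in the Pklr ratio was not tested. Aldoa at 0.06, Tpi1 at 0.03 and Pkm at -0.08 also had intervals that included equality.

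Abundant liver transcripts in general leaned the same way. Among all features of at least 1000 CPM in liver the median log2 ratio was 0.21 and 79.7% were above 0; among those of 10 to 30 CPM it was -0.12, with 41.8% above 0. The 4 members of at least 1000 CPM (Eno1, Fbp1, Gapdh and Ldha) had ratios of 0.42 to 0.67, and the 7 members of 10 to 30 CPM a median of -0.50. In cerebellum and hippocampus the median of features of at least 1000 CPM was 0.01 and 0.06. The part of this level trend in the members' ratios was not tested.

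**Figure D4:**
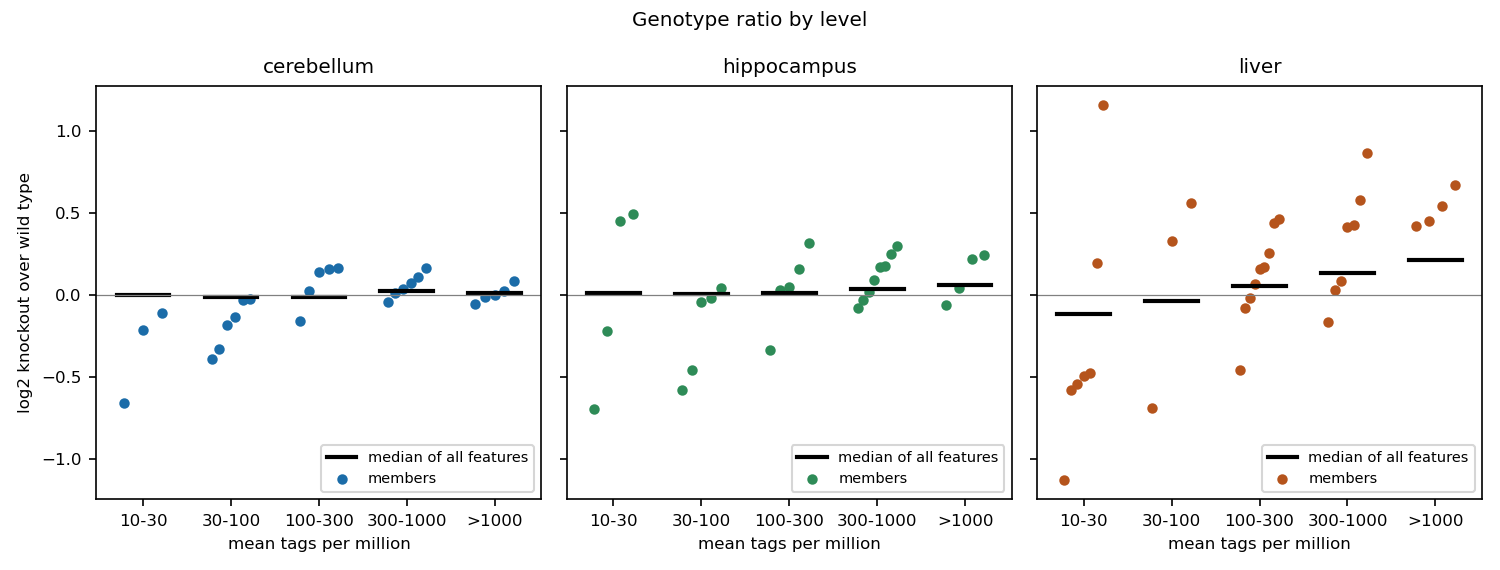
Log2 ratio of knockout over wild type by mean level (CPM) in each tissue; points are members and black lines the median of all features in the band. In liver the medians of all features run from -0.12 to 0.21, and those of the members from -0.50 to 0.49, between the lowest and the highest band.

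Gluconeogenic genes did not move as a block. Fbp1 had a liver log2 ratio of 0.45 (interval 0.35 to 0.55), on the same side as Pck1, whereas G6pc, which carries out the last step, had 133 and 306 tags (-0.46, interval -0.76 to -0.16). Slc2a2, through which the glucose leaves, had 298 and 418 tags (0.25, interval 0.03 to 0.47). On the glycogen side Gys2 had 136 and 165 tags (0.46, interval 0.13 to 0.80), while Pygl (0.08), Ppp1r3b (-0.02), Ppp1r3c (0.16), Ugp2 (-0.17) and Gbe1 (0.17) had intervals that included equality. Gckr had 241 and 298 tags (0.44, interval 0.18 to 0.69). Pfkfb1, the liver form of the fructose 2,6-bisphosphate enzyme, had 5 and 16 tags, and Pfkfb3, its inducible form, 4 and 12, both too few for the size rule.

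Gapdh and Eno1 need a separate account, because 99.993% and 99.161% of their tags lie in rows shared with pseudogenes or predicted genes. The 6 Gapdh rows with the most tags had liver log2 ratios of 0.62 to 0.78, and the seventh, with 55 and 100 tags, stood at -0.12. In hippocampus the rows parted: the first row, with 4623 and 4726 tags, stood at -0.14 and the third, with 3615 and 2520, at 0.41. The main Eno1 row had a liver ratio of 0.54, and a small row of Eno1 alone, with 20 and 22 tags, had 0.60. Without shared rows Gapdh had at most 2 tags in a library and no ratio could be formed.

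Other genes around the pathway lay on both sides of equality in liver. Of 52 other pathway genes, 29 were measured there; 2 were higher and 4 lower in knockout, beside 4.07% and 6.70% of all features in liver, with a median log2 ratio of 0.01. The highest was Gyg, the glycogenin that primes glycogen, with 20 and 14 tags (1.26, interval 0.20 to 2.35), and the lowest Pdk1, a kinase that inhibits pyruvate dehydrogenase, with 35 and 163 tags (-1.48, interval -2.05 to -0.94). Of 39 regulators of glucose metabolism, 33 were measured, with 3 higher and 3 lower (same shares of all features) and a median of -0.11. Igfbp1, an insulin-repressed secreted protein of the liver, was the highest of them, with 195 and 123 tags (1.41, interval 1.07 to 1.74), and Irs2, an adaptor of the insulin receptor, the lowest, with 6 and 21 (-1.07, interval -2.66 to 0.29). Of 16 hypoxia genes outside glycolysis, 10 were measured, with 0 higher, 1 lower (Pdk1 again) and a median of 0.01. Of 10 pentose phosphate and NADPH genes, all 10 were measured, with 1 higher, Taldo1, the transaldolase, at 257 tags in each library (0.74, interval 0.49 to 1.00), and 0 lower. In the genotype fit across tissues 0 genes of these 4 lists were called.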

How the data were processed

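The deposited tables hold raw MACE tag counts for each RefSeq record, split into sense and antisense, per the file headers. Base calling used CASAVA 1.8.2 and the build is given as mm9, per the submitters' processing notes, whereas the deposited tables name a GRCm38 set; no aligner is named in the sources used here. The protocol text names midbrain and ages in weeks; the sample labels were followed. Rows that name no gene took 23.8% to 30.1% of tags and stayed out. The authors' 12 normalized columns were not used.

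Sense counts were summed per symbol, and a row shared only with pseudogenes or predicted genes went to the named gene. Strand is given by the tables, and antisense tags were not counted. Genes were tested with edgeR 4.0.16 (R 4.3.3; quasi-likelihood, filterByExpr by genotype, TMM, tissue plus genotype) with Benjamini-Hochberg adjustment. The 3 libraries of a genotype carry the same animal numbers, so p-values of the genotype fit measure agreement between tissues, not the spread between animals. In the tissue comparisons the knockout and wild-type libraries of a tissue stood in as its replicates. Those p-values measure how far the tissue difference agreed between the genotypes, whose pools also differed in Xist. They do not measure the spread between animals either. Within a tissue, ratios carry exact 95% Clopper-Pearson intervals (SciPy 1.17.1) for counting error only; a count of 0 against more than 3 was set to 3, and no ratio was formed where a 0 met 3 or fewer. Tests were tried on simulated data: the genotype fit recovered 98% of genes changed 4-fold, the liver-brain fit 78% and the cerebellum-hippocampus fit 66% of those changed 2-fold, with 3, 4 and 10 unchanged genes called. Simulated calls used the adjusted p alone, without the 2-fold limit of the liver-brain calls. For the liver-brain and cerebellum-hippocampus fits, the simulated tissues were alike apart from the changed genes. Real tissues differ far more widely, so those figures do not carry over to the tissue tests.

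The members and all lists were chosen with earlier results of these data known. Named in full were members past the size rule, the highest and lowest isozyme of each family, the 5 most abundant members of each tissue, and the highest and lowest listed gene in liver. Some listed genes are not reported here. Alternatives were DESeq2 1.42.0, limma 3.58.1 (voom), other scalings, filters, size limits and row rules, no tissue block, and each library or tissue left out.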

Additional observations from a re-analysis of the deposited data

How the results depend on the processing

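Across tissues, 0 members were called for genotype under all 13 alternatives in each direction. For liver against brain, 13 members were higher with the filter set by tissue and with a mean of at least 10 CPM and 14 with no filter, since more liver genes were then tested; without 1 library the count ran from 7 to 13 and the 15 lower from 15 to 16. For cerebellum against hippocampus, DESeq2 gave 2 higher and 2 lower and limma voom 7 lower; without 1 library the higher ran from 0 to 5 and the lower from 1 to 11, and the fitted log2 difference of Ppp1r3b ran from -1.24 to 5.08. The last value came without the wild-type hippocampus library, when the remaining one has 0 of its tags, and is no bound. Where a library was left out, the lone library of its group was taken to vary like the others. Within tissues, the lower cerebellum count was 0 with the single highest row per symbol and at 2-fold. The lower hippocampus count was 2 with DESeq2's size factors and with totals, 0 at 2-fold and 5 with a mean of at least 1 CPM (Fbp1, Gckr, Ppp1r3b, Pygl and Pygm). In liver the higher count was 6 with DESeq2's size factors and 1 at 2-fold (Hk1), and the lower count was 1 with DESeq2's size factors, with totals and at 2-fold. Apart from the 2-fold limit, shares of all features are not given for these counts within tissues. With only rows of 1 symbol, Eno2's share of enolase tags became 98.3% (knockout) and 98.4% (wild type) for cerebellum, 98.3% and 98.6% for hippocampus, and 44.4% and 64.5% for liver, because nearly all Eno1 rows are shared. Apart from the fewer rows or genes named, the cause of these shifts was not tested. No paired analysis was possible because each group has 1 library and thus 1 replicate number; tissue was the block of the genotype fit, and without it 0 members were called as well. The interaction of genotype and tissue leaves no residual degrees of freedom. Depth limits members under 10 CPM, where an interval often spans more than 2-fold.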
